A study of Mus musculus with 8 samples.

Results

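Star strands are the mature miRNAs whose array name ends in an asterisk, an older notation for the arm of a hairpin that was recovered less often when the miRNA was named. Probes were taken as members when any of their names in the 6 comparison sheets of the study ended in an asterisk. This gave 41 of the 346 named probes, with 40 distinct probe names, since miR-483* was on the array with 2 probes. The sheets of ATM-/- cells listed 17 of them and those of ATM+/+ cells listed 39. Both genotypes shared 15, and 11 stood in all 6 sheets. The array measures the level of each strand and not its loading, so the passenger role given by the name cannot be checked here.

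The cells were embryonic fibroblasts from ATM-/- mice and their ATM+/+ littermates, grown in serum-containing medium. ATM is a protein kinase that responds to double-strand breaks in DNA. Neocarzinostatin (NCS), which breaks DNA as ionizing radiation does, was given and cells were harvested at 0, 4, 8 and 24 h. Each of the 8 groups was 1 array of total RNA: ATM-/- at 0, 4, 8 and 24 h, and ATM+/+ at 0, 4, 8 and 24 h. No group has replicates, the 3 treated times of a genotype share 1 array at 0 h, and an SD given below is over those 3 times. A miRNA array does not measure Atm mRNA, so the genotype labels were not checked. The study asked how miRNA levels respond to DNA damage with and without ATM.

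A miRNA hairpin is cut by Drosha and Dicer into a short duplex. One strand, the guide, is kept in an Argonaute protein and pairs with messenger RNAs through its seed, while the other strand, the passenger or star, is usually released and degraded. Both strands come from the same precursor, so a change in transcription or processing reaches both, whereas selection and turnover act on each strand by itself. Some strands named as stars are stable and loaded: the miR-140 hairpin, known from cartilage, gives an abundant star in many mouse tissues.

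Mature sequences were found in RefSeq (GRCm38.p6) for 31 of the 42 star names on these probes. The sequences of the strands on which the results turn are given 5′ to 3′, with the seed (bases 2 to 8) in capitals. The first set shows the miR-30c stars, which had among the lowest responses in ATM+/+ cells, with the guide that both hairpins share.
miR-30c-1*: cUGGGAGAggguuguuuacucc
miR-30c-2*: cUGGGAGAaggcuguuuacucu
miR-30c: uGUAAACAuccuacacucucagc
The next set shows let-7b and miR-431, whose arms moved to opposite sides of their 0 h level in ATM+/+ cells.
let-7b*: cUAUACAAccuacugccuuccc
let-7b: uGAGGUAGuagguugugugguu
miR-431*: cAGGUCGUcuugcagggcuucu
miR-431: uGUCUUGCaggccgucaugca
The last set shows stars that stood above 0 h in ATM+/+ cells.
miR-22*: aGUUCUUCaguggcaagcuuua
miR-24-2*: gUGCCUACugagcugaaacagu
miR-140*: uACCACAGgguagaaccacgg
The miR-30c stars differ at 3 of 22 bases and share the seed UGGGAGA, so a probe for either may also bind the other. miR-30c-1* lies at chr4:120769546-120769567 (minus strand), in a hairpin within an intron of Nfyc, and miR-30c-2* at chr1:23291754-23291775 (plus strand). miR-22* lies at chr11:75463734-75463755 and miR-140* at chr8:107551288-107551308, both on the plus strand.

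Among the 31 sequences, 21 are 3p arms and 10 are 5p arms, and they are 21 to 23 bases long. Cytosine was the first base of 16 of the 31 stars and of 2 of the 25 other arms with a sequence. Uracil was the first base of 6 stars and of 13 other arms. Argonaute is known to favour a strand that begins with uracil or adenine. Median GC content was 54.5% in the stars and 45.5% in the other arms. Apart from the miR-30c stars, 2 pairs share a seed: miR-24-1* with miR-24-2* (UGCCUAC), and miR-376b* with miR-376c* (UGGAUAU). miR-376b* and miR-376c* differ at 1 of 22 bases.

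Intensities are the authors' normalized values, brought onto one scale per genotype through the 0 h array. They depend on the probe as well as on the miRNA, so they give no order of abundance between strands, and the genotypes were normalized separately, so levels were not tested between them. At 0 h the star probes had intensities of 24.0 to 675 in ATM-/- cells (median 64.6, 17 probes) and of 14.8 to 827 in ATM+/+ cells (median 38.1, 39 probes). The other listed probes had medians of 52.2 for ATM-/- and 68.3 for ATM+/+. These medians are over different sets of probes in the genotypes. Over the probes in all 6 sheets, ATM-/- cells had medians of 91.5 for 11 stars and 94.6 for all 120 probes. For the same probes ATM+/+ cells had medians of 82.3 and 210. The 2 star probes with the highest signal at 0 h were shared by the genotypes. miR-30c-1* read 675 for ATM-/- and 789 for ATM+/+, and miR-92a*, from the growth-linked miR-17-92 cluster, read 248 for ATM-/- and 827 for ATM+/+. For ATM-/- miR-140*, let-7b*, miR-877* (109, 106 and 104) and a miR-483* probe (91.5) followed. In ATM+/+ cells the probe for miR-467a* and miR-467d* (161), miR-877* (128), miR-30c-2* (92.5) and miR-140* (89.7) followed. Some of the others were faint, and a signal in the lowest 10% of its sheet was counted as dim. In the 4, 8 and 24 h ATM-/- sheets 2 of 17, 1 of 14 and 2 of 11 star probes had one. Of all probes there, 29 of 185, 28 of 154 and 22 of 126 did. In the ATM+/+ sheets 10 of 35, 7 of 34 and 8 of 32 star probes had one, beside 55 of 311, 52 of 298 and 56 of 313 of all probes. The depth of an array is not counted in reads, and the number of arrays limits the precision.

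Responses are log2 of treated over 0 h intensity within a sheet, with no pseudocount. In ATM-/- cells the median star response was 0.05, -0.07 and -0.30 at 4, 8 and 24 h, beside 0.08, -0.10 and -0.08 over all listed probes. In ATM+/+ cells it was 0.01, -0.07 and -0.51, beside 0.19, 0.07 and -0.14 over all listed probes. In ATM-/- sheets the star median thus sat 0.04 below, 0.03 above and 0.22 below that of all probes at 4, 8 and 24 h. In ATM+/+ sheets it sat 0.18, 0.14 and 0.37 below. At 24 h, 8 of 11 stars in ATM-/- cells and 23 of 32 in ATM+/+ cells were below their 0 h level. The medians of all listed probes were below 0 there as well (-0.08 and -0.14). The share of all probes below 0 h in a single sheet was not counted, so these counts are not particular to stars.

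**Figure D1:**
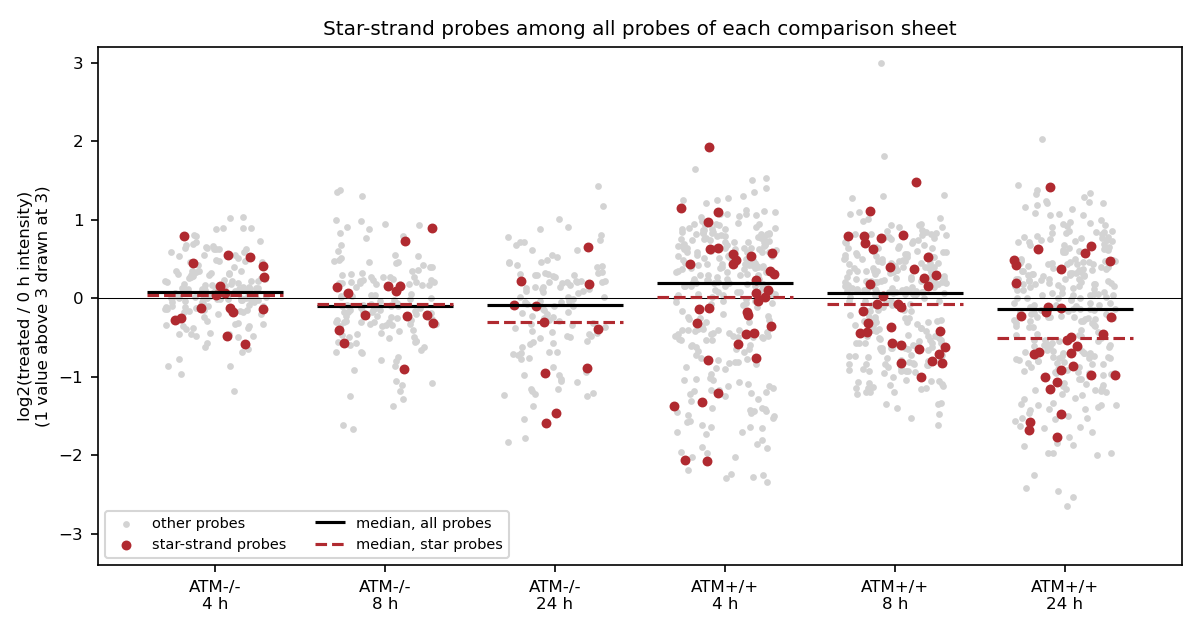
Log2 of treated over 0 h intensity (vertical axis) for every probe of the 6 comparison sheets, 1 array against 1 array each. Red points are star strands, grey points the other probes, solid lines the medians of all probes and dashed lines the medians of star strands, which lie at -0.30 in ATM-/- and -0.51 in ATM+/+ cells at 24 h.

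Changes of at least 2-fold were counted per sheet. No star was 2-fold higher at 4, 8 or 24 h in ATM-/- cells, where 1.08%, 2.6% and 2.38% of all probes were. Likewise 0 stars were 2-fold lower at 4 or 8 h (0.541% and 5.84% of all probes), and 2 of 11 at 24 h, miR-30c-1* and let-7b* (12.7% of all probes). In ATM+/+ cells 3 of 35 stars were 2-fold higher at 4 h (7.07% of all probes): miR-22*, miR-299* and miR-708*. At 8 h 2 of 34 were (3.69%), miR-22* and miR-24-2*, and at 24 h 1 of 32 was (5.75%), miR-22*. Stars 2-fold lower in ATM+/+ cells numbered 5 of 35 at 4 h (18.3% of all probes). At 8 h there were 0 of 34 (8.39%), and at 24 h 7 of 32 (17.6%). The 5 at 4 h were also among the 7 at 24 h. No sheet has a replicate.

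Averaged over the 3 times, 11 stars could be followed in ATM-/- cells and 30 in ATM+/+ cells. None of the 11 was 2-fold higher or lower in ATM-/- cells (0.813% of 123 probes in each direction), and their median was -0.21, beside -0.06 for all probes. Leaving out 24 h gave -0.08 (all probes -0.02), leaving out 8 h gave -0.11 (all probes -0.04), and leaving out dim signals gave 0.0037 (9 stars; all probes -0.04). In ATM+/+ cells 1 of 30 was 2-fold higher (4.93% of 284 probes) and 5 were 2-fold lower (17.6%), with a median of -0.26 beside 0.00 for all probes. This median rested largely on 24 h: without that array it was -0.05 (all probes 0.07), and without dim signals -0.11 (21 stars; all probes 0.12). Above 0 h at all 3 times stood 2 ATM-/- stars (13% of all probes), and below it 4 (17.1%). In ATM+/+ cells 9 stood above at all 3 times and 14 below, against 40.8% of all probes in each direction.

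**Figure D2:**
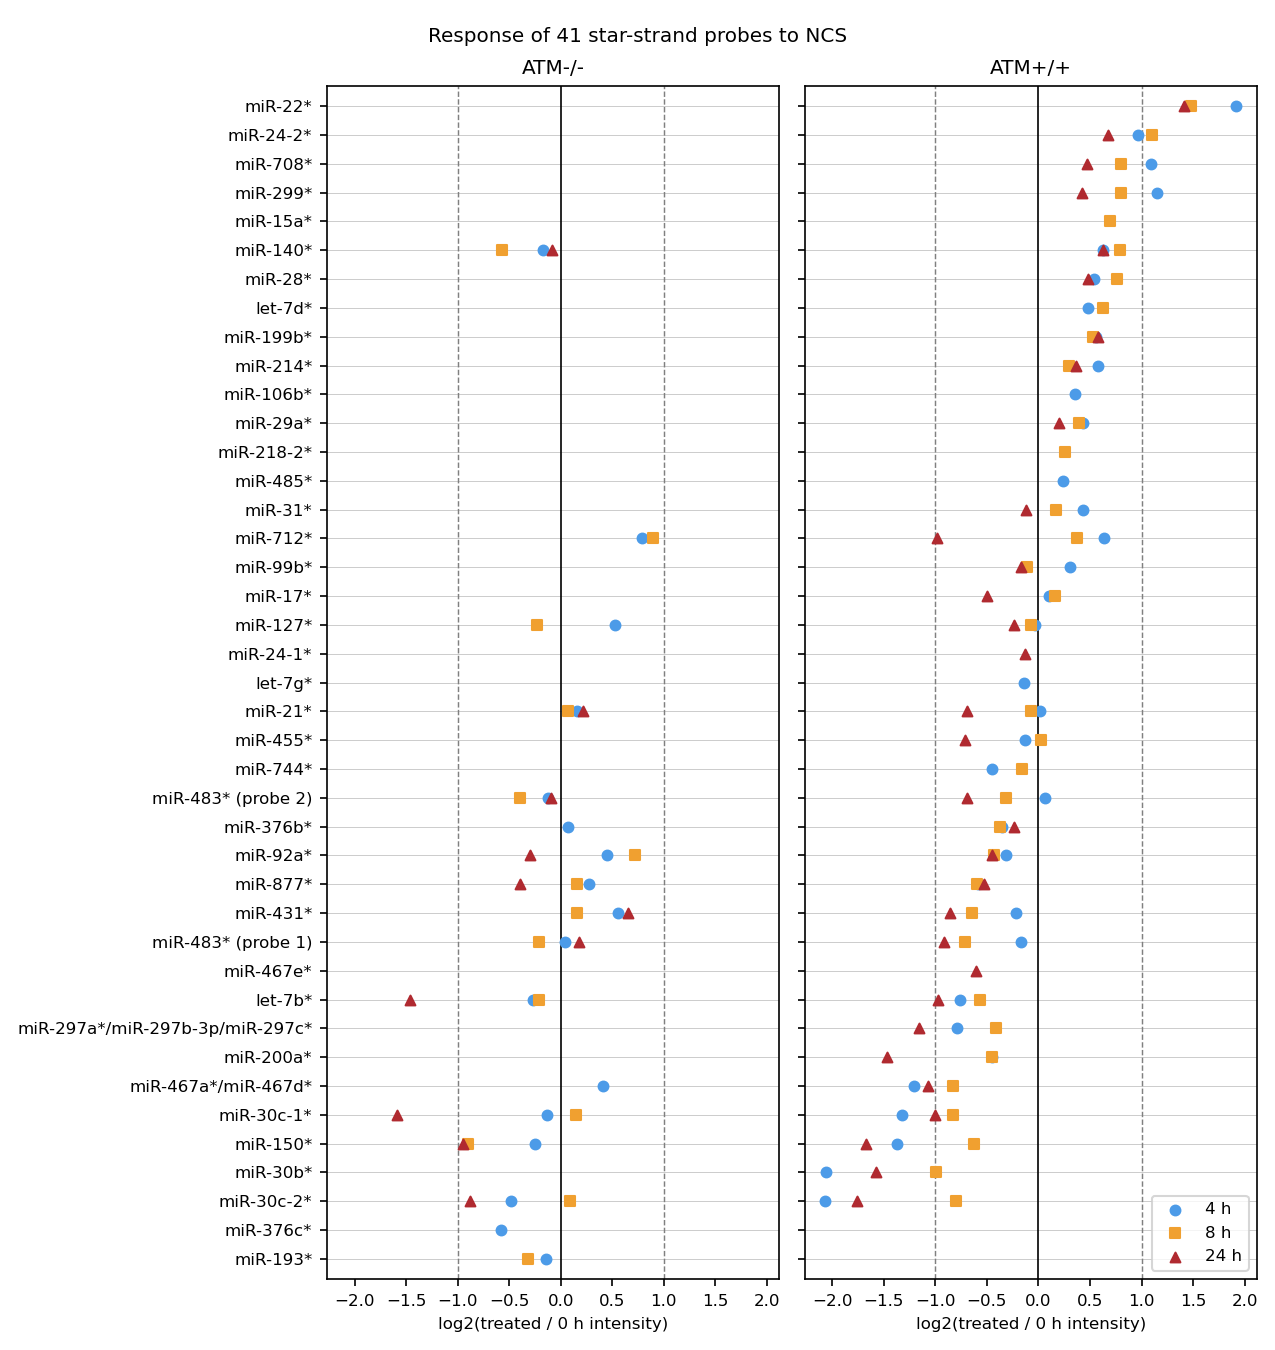
Log2 of treated over 0 h intensity (horizontal axis) of the 41 star-strand probes, ATM-/- on the left and ATM+/+ on the right, at 4 h (circles), 8 h (squares) and 24 h (triangles). Dashed lines mark 2-fold, and a missing symbol means that the sheet does not list the probe; miR-22* is above the upper line at all times in ATM+/+ cells, and miR-30c-1* is below the lower one at 24 h in ATM-/- cells.

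The miR-30 stars were the lowest group in ATM+/+ cells. miR-30 guides are broadly expressed and are known to restrain connective tissue growth factor in heart cells. miR-30c-1* had intensities of 675, 617, 748 and 224 at 0, 4, 8 and 24 h in ATM-/- cells, against 789, 315, 443 and 394 in ATM+/+ cells. The ATM-/- arrays stayed near the 0 h value until 8 h and were low at 24 h alone, while all 3 treated ATM+/+ arrays were low. Its coefficient of variation between spots was 1.29% to 4.04% on the 4 ATM-/- arrays and 1.15% to 4.64% on the 4 ATM+/+ arrays. Within the chip that carried both the 8 and 24 h arrays, the change from 8 to 24 h was -1.74 (log2) in ATM-/- cells and -0.17 in ATM+/+ cells.

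miR-30c-2* read 56.7, 40.7, 60.2 and 30.7 at 0, 4, 8 and 24 h in ATM-/- cells, against 92.5, 22.03, 53.04 and 27.2 in ATM+/+ cells. Its mean response was -0.43 ± 0.49 in ATM-/- cells and -1.55 ± 0.66 in ATM+/+ cells (SD over 3 times). miR-30b*, listed in ATM+/+ sheets only, read 74.9, 17.9, 37.5 and 25.1. It followed the same course, lowest at 4 h and partly back at 8 h. All 3 miR-30 stars lay below 0 h at every time in ATM+/+ cells, as were 40.8% of all probes, and all 3 were at least 2-fold lower on the mean, as were 17.6% of all probes. Their median was -1.55. The 4 h signals of miR-30b* and miR-30c-2* were under the dim limit of that sheet (24.4), so their folds there rest on a faint treated signal.

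Of the other stars with low responses in ATM+/+ cells, the probe for miR-467a* and miR-467d*, from the intronic cluster of Sfmbt2, read 161, 69.5, 90.5 and 76.3 at 0, 4, 8 and 24 h. This is a mean of -1.04 ± 0.19, with all 3 treated arrays well below 0 h. miR-150*, whose hairpin is known from lymphocytes, read 64.6, 54.2, 34.6 and 33.5 in ATM-/- cells, against 65.1, 25.2, 42.3 and 20.4 in ATM+/+ cells. It was below 0 h at every time in both genotypes, with means of -0.70 ± 0.39 in ATM-/- and -1.22 ± 0.54 in ATM+/+ cells. Its spots varied by up to 79.8% on the ATM-/- arrays and 48.9% on the ATM+/+ arrays. miR-200a*, of the epithelial miR-200 family, had a mean of -0.79 in ATM+/+ cells from a 0 h signal of 27.2, and the probe for miR-297a* and miR-297c* had -0.79 from 39.2. The latter probe is also named for miR-297b-3p, a name without an asterisk.

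let-7b*, from a let-7 hairpin whose guide restrains growth genes, read 106, 88.0, 91.9 and 38.7 at 0, 4, 8 and 24 h in ATM-/- cells. In ATM+/+ cells it read 73.8, 43.4, 49.6 and 37.6. As with miR-30c-1*, the ATM-/- value was low at 24 h alone (-1.46), and the ATM+/+ values were low throughout (-0.77, -0.57 and -0.97). The 24 h ATM-/- spots of let-7b* varied by 31.0%. miR-92a* read 248, 338, 409 and 201 in ATM-/- cells, against 827, 662, 612 and 605 in ATM+/+ cells, a course above 0 h at 4 and 8 h in ATM-/- cells and below it throughout in ATM+/+ cells. miR-877*, from a mirtron that is spliced out of Abcf1, read 104, 125, 116 and 78.9 in ATM-/- cells, against 128, 85.3, 84.9 and 88.8 in ATM+/+ cells. Its 3 treated values in ATM+/+ cells were nearly equal, with a mean of -0.57 ± 0.04.

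The 9 ATM+/+ stars that exceeded 0 h at every time were led by miR-22*. miR-22*, from a broadly expressed hairpin, had ATM+/+ intensities of 14.8, 56.2, 41.4 and 39.6 at 0, 4, 8 and 24 h, and the ATM-/- sheets do not list it. All treated values lie well above the 0 h value, which is itself under the dim limit of 24.4 in the 4 h sheet. The 0 h spots of miR-22* varied by 39.8%. miR-24-2*, from the cluster with miR-23a and miR-27a, read 25.8, 50.3, 55.5 and 41.03, a mean of 0.91 ± 0.22. miR-708*, in an intron of Tenm4, read 31.1, 66.4, 54.3 and 43.1, and miR-299*, from the imprinted Dlk1-Dio3 region, read 31.1, 68.9, 54.0 and 41.6. Both had a mean of 0.79, highest at 4 h. miR-199b* read 88.6, 131, 127 and 132, nearly the same at every treated time (0.55 ± 0.03). miR-28*, within Lpp, had a mean of 0.60 ± 0.15 and miR-214*, from the Dnm3os transcript, 0.41 ± 0.14. miR-29a*, from a hairpin known to restrain collagen genes, had 0.34 ± 0.13, and miR-140* is described with the genotype comparison.

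limma was fitted with the 3 treated times taken as repeats, since no group has replicates. Its SE and p thus rest on the spread between treated times, set against 1 array at 0 h. They do not measure the spread between replicates or the error of the 0 h array. For ATM-/- limma called none of 123 probes (0%) at a Benjamini-Hochberg adjusted p under 0.05. The unadjusted limma p was under 0.05 for 1 probe and no star. In ATM+/+ cells it called 24 of 284 probes (8.45%), 2 of them stars. miR-22* rose by 1.61 (log2, SE 0.33, limma adjusted p = 0.0374), and miR-30b* fell by 1.55 (SE 0.41, limma adjusted p = 0.0458), each in 3 of 3 treated arrays. miR-30c-2* (adjusted p = 0.0571), the miR-467a* and miR-467d* probe (0.0581), miR-30c-1* (0.0585) and miR-150* (0.0646) did not pass. The chip changed these calls: with it as a block, which leaves the 4 h against 0 h contrast and 1 residual degree of freedom, limma called 5 stars of 30 (18% of all probes). They were miR-30c-2* (-2.07), miR-30b* (-2.06), miR-22* (1.92), miR-150* (-1.37) and miR-30c-1* (-1.32), in log2 of 4 h over 0 h. Every star had the same SE of 0.47 in this fit, so it only ranks folds of 1 array against 1 array. The 4 h signals of miR-30c-2* and miR-30b* and the 0 h signal of miR-22* were dim. Centring arrays on their median or leaving out the 8 h array ended both unblocked calls, and quantile normalization, which called miR-22* and miR-24-2* (6.69% of all probes), ended that of miR-30b*. Without the dimmest 10% of probes 7 of 27 stars were called, as were 25.9% of all probes.

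Both arms of a hairpin were listed at all times for 7 pairs in ATM-/- cells and 26 in ATM+/+ cells. The star minus guide difference of mean responses had a median of 0.34 in ATM-/- cells, and the star was above its guide at all 3 times in 3 pairs and below in 0. That median was 0.53 when 4 h was left out and 0.21 when 24 h was left out. In ATM+/+ cells the median was -0.29, and the star was above its guide at all times in 7 pairs and below in 14. The 24 guides of these ATM+/+ pairs had a median response of 0.45, and 16 exceeded 0 h throughout (40.8% of all probes). In 6 of the 26 ATM+/+ pairs the star was below 0 h and the guide above it at every time: miR-30c-1*, miR-30c-2*, let-7b*, miR-92a*, miR-431* and miR-127*. Of all single probes in ATM+/+ cells, 40.8% were below 0 h throughout and 40.8% above. The share of unrelated probe pairs that differ in these ways was not computed, and the reverse split was not counted. The pairs are not independent: both miR-30c stars share a guide, the miR-297 star probe enters with 2 guides, the miR-431 guide is the mean of 2 probes, and both miR-483* probes share a guide. These differences describe separate probes on the same arrays and were not tested.

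The widest gaps in ATM+/+ cells were those of miR-30c-2* (-2.50 ± 0.82) and miR-30c-1* (-2.01 ± 0.38) against miR-30c. That guide read 20.5, 42.2, 35.0 and 42.7 at 0, 4, 8 and 24 h, so its 0 h signal was dim. The let-7b guide of ATM-/- cells read 84.5, 73.3, 53.5 and 29.1, and its star also lay below 0 h at every time, a gap of 0.15 ± 0.27. In ATM+/+ cells the let-7b guide read 192, 359, 324 and 451, while let-7b* lay below 0 h, a gap of -1.73 ± 0.44. The guide miR-21, known from fibroblasts and linked to growth, read 32.3, 45.4, 19.9 and 24.7 in ATM-/- cells, where it was faint, and miR-21* read 76.4, 85.1, 79.9 and 88.9. In ATM+/+ cells miR-21 read 1059, 2461, 1825 and 2458, and miR-21* read 78.7, 79.3, 74.7 and 48.6. That gap was 0.34 ± 0.59 in ATM-/- and -1.33 ± 0.54 in ATM+/+ cells. For miR-92a the gap was 0.39 ± 0.41 in ATM-/- and -0.82 ± 0.20 in ATM+/+ cells, and for miR-431 it was 0.63 ± 0.09 in ATM-/- and -0.81 ± 0.19 in ATM+/+ cells. Of the 7 pairs in ATM-/- cells, let-7b, miR-21, miR-92a and miR-431 thus had mean gaps of opposite sign in the genotypes. The gaps of miR-877 and of both miR-483* probes were above 0 in both. In ATM-/- cells only the miR-431 gap among those of opposite sign exceeded its SD. At 4 h the ATM-/- gaps of let-7b (-0.07) and miR-21 (-0.33) were below 0, as in ATM+/+ cells. The difference between genotypes was not tested.

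The widest gaps in the other direction were those of the miR-483* probes (1.17 and 0.88), miR-22* (0.88), miR-297c* (0.73) and miR-712* (0.64) in ATM+/+ cells. The gap of miR-297c* depended on the guide: the same star probe had a gap of -0.08 ± 0.50 against miR-297a. The miR-297c guide was dim at every treated time in ATM+/+ cells, with 17.3 at 4 h and 11.6 at 24 h. miR-483 lies in an intron of the imprinted Igf2 gene; its guide read 668, 610, 755 and 259 in ATM-/- cells, where the star probes had gaps of 0.23 ± 0.94 and 0.45 ± 0.99. In ATM+/+ cells it read 1900, 467, 909 and 743, and the star probes read 73.8, 77.1, 59.1 and 45.7, and 82.3, 73.0, 50.1 and 43.7. The ATM+/+ guide was thus lowest at 4 h, when the first of these star probes was near its 0 h value. miR-877 had the same mean gap of 0.31 in both genotypes. In 7 ATM+/+ hairpins both arms exceeded their 0 h level throughout (miR-199b, miR-29a, miR-214, miR-28, miR-140, miR-24-2 and miR-22). Of all single probes in ATM+/+ cells, 40.8% did so. Both arms thus had the same sign in these hairpins, and whether their courses over time were alike was not tested. miR-140* was the closest to its guide, with a gap of 0.02 ± 0.23.

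**Figure D3:**
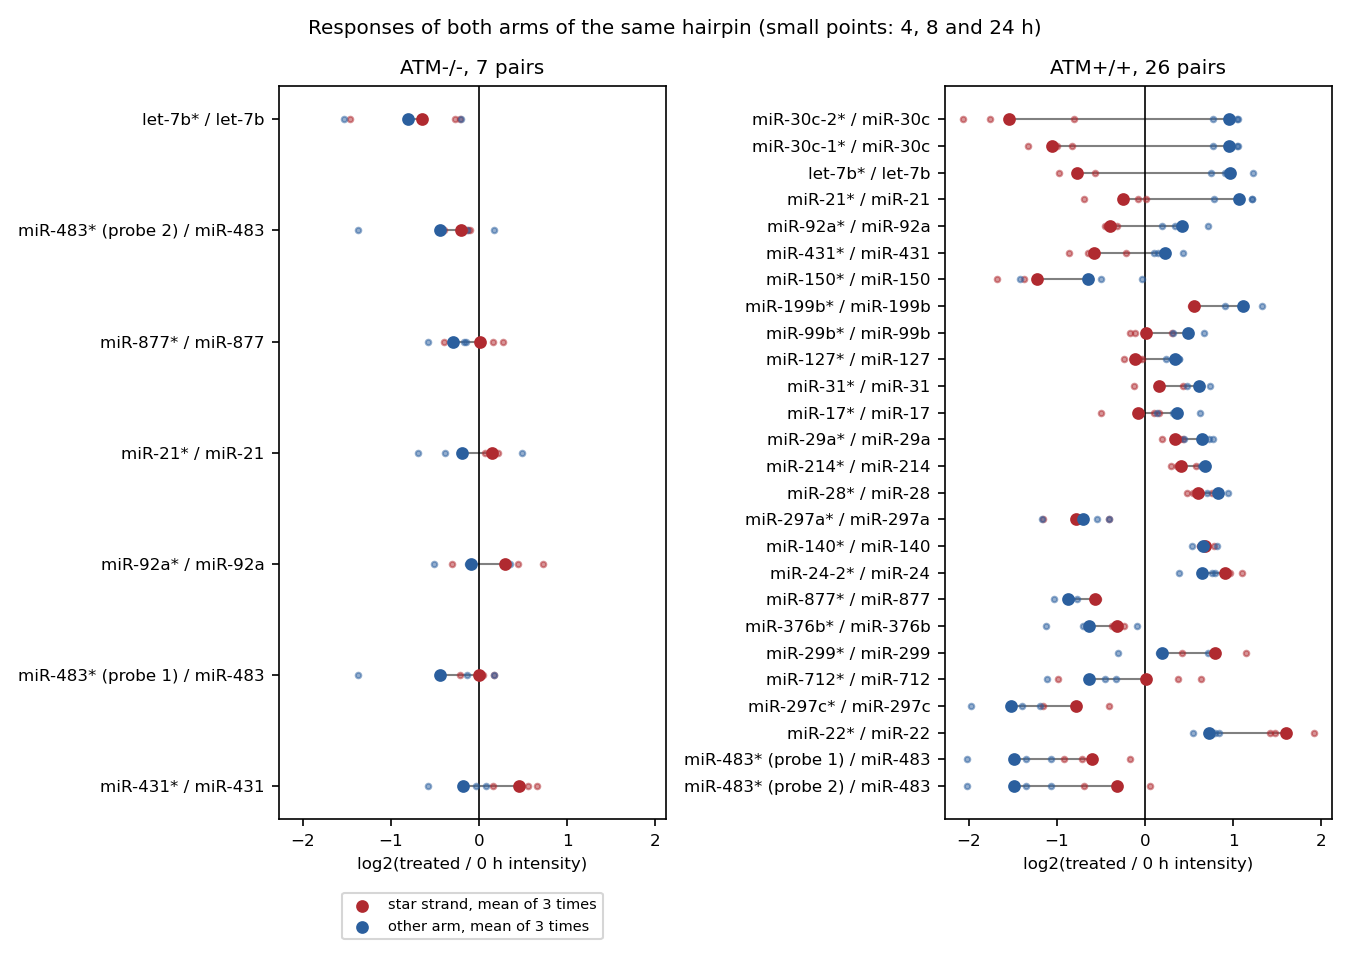
Log2 of treated over 0 h intensity (horizontal axis) for the star strand (red) and the other arm of the same hairpin (blue), with 7 pairs in ATM-/- and 26 pairs in ATM+/+ cells. Large points are means of 3 times, small points the single times, and pairs are ordered by their gap; miR-30c-2* against miR-30c has the widest gap, -2.50.

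The genotypes could be compared for the 11 stars in all 6 sheets, as the response in ATM-/- minus that in ATM+/+ cells. The median difference was 0.53, beside 0.15 over all 120 probes, and it was 0.77, 0.51 and 0.59 at 4, 8 and 24 h. A difference of at least 1 was found for 2 stars (18.3% of all probes), miR-30c-2* (1.12 ± 0.41) and miR-431* (1.03 ± 0.42), and of at most -1 for 0 stars (6.67%). The 0 h spots of miR-30c-2* in ATM-/- cells varied by 35.6%, and its 24 h signal there was dim. The difference was above 0 at all 3 times for 6 stars (32.5%) and below 0 for 1 (33.3%), miR-140*. limma called none of the 120 probes for the difference (0%), for treated against 0 h in ATM-/- cells (0%) or in ATM+/+ cells (0%) in the fit to all 8 arrays. With the chip as a block this fit called 10 of 120 probes (8.33%) in ATM+/+ cells, among them miR-30c-2* (limma adjusted p = 0.0238), and again none for the difference. That blocked call rests on 4 h against 0 h alone, and every star had the same SE there (0.62). Without the block, the limma fit to all 8 arrays gave 9 probes for the difference at an unadjusted p under 0.05. It gave 3 for ATM-/- and 27 for ATM+/+ cells, the last with 2 stars, miR-150* and miR-30c-2*. The lowest limma adjusted p of a star for the difference was 0.419 without the block.

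Opposite signs at every time were seen for 2 stars (12.5% of all probes). miR-431*, from the Dlk1-Dio3 region, read 36.4, 53.4, 40.7 and 57.4 at 0, 4, 8 and 24 h in ATM-/- cells, against 65.7, 56.6, 42.0 and 36.1 in ATM+/+ cells. Every treated array was above 0 h in ATM-/- cells and below it in ATM+/+ cells. Its 8 h response in ATM-/- cells was only 0.16, and its spots varied by 29.8% at 0 h and 20.8% at 24 h there. miR-140* read 109, 96.9, 73.7 and 103 in ATM-/- cells, against 89.7, 138, 155 and 139 in ATM+/+ cells, the reverse arrangement, with a difference of -0.96 ± 0.35. Its 4 and 24 h responses in ATM-/- cells, -0.17 and -0.08, were small beside spot variation of 9.43% to 20.5%. miR-21* differed by 0.40 ± 0.45, mainly through a low 24 h value in ATM+/+ cells.

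**Figure D4:**
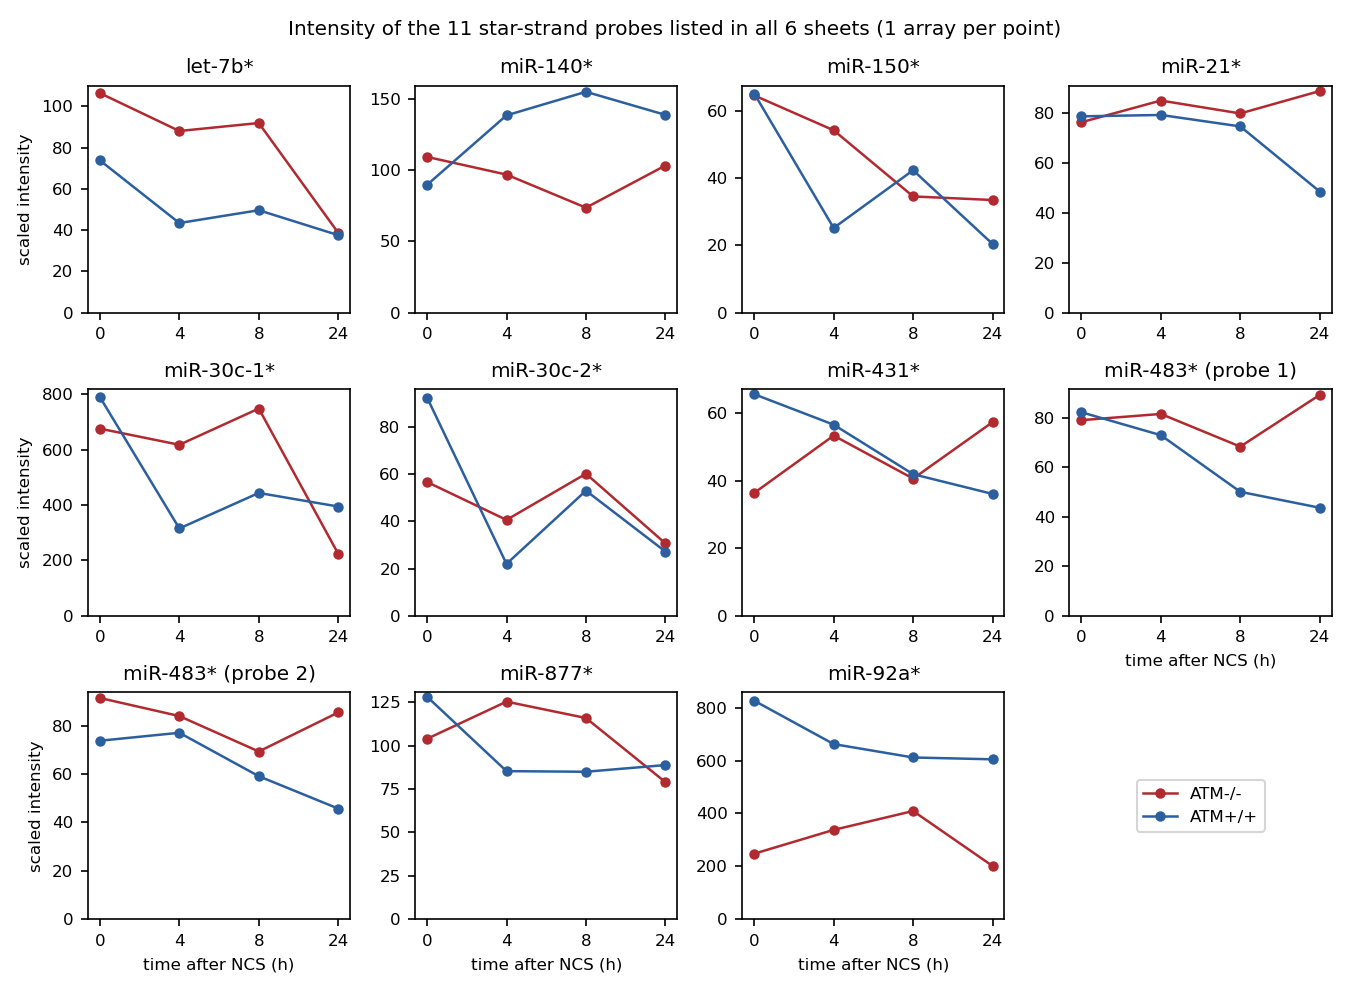
Scaled intensity (vertical axis, from 0, separate range per panel) at 0, 4, 8 and 24 h after NCS for the 11 star-strand probes listed in all 6 sheets, ATM-/- in red and ATM+/+ in blue, 1 array per point. miR-30c-1* and let-7b* are low at 24 h alone in ATM-/- cells. The treated values of miR-431* and miR-140* lie on opposite sides of the 0 h value in the genotypes. The heights of the lines are not comparable between genotypes, which were normalized separately.

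By family and locus, 7 stars from hairpins typical of mesenchymal cells (miR-21*, miR-22*, miR-29a*, miR-31*, miR-99b*, miR-199b* and miR-214*) had a median of 0.34 in ATM+/+ cells, with 4 above 0 h at all times (40.8% of all probes), none below at all times (40.8%) and 1 at least 2-fold higher (4.93%). The same shares of all probes stand behind the counts for the other groups. Only miR-21* of these was followed in ATM-/- cells, at 0.15 ± 0.08. In the imprinted Dlk1-Dio3 region, whose miRNAs are expressed from the maternal chromosome, 4 of 6 stars were followed in ATM+/+ cells: miR-127*, miR-376b* and miR-431* were below 0 h at all times and miR-299* above. Both followed probes of the Sfmbt2 cluster were below 0 h throughout, and their median was -0.91. In the miR-17-92 group miR-92a* was below at all times and miR-17* was not (mean -0.08 ± 0.36). The p53-linked list and the miRNAs of the Clcn5 cluster had 0 star probes in the sheets. miR-712*, whose hairpin lies in the spacer of the ribosomal RNA precursor, was above 0 h at 4 and 8 h in ATM-/- cells (0.79 and 0.89). In ATM+/+ cells it stood at 0.64, 0.38 and -0.98 at 4, 8 and 24 h. Of the other stars in only some ATM-/- sheets, miR-127* stood at 0.53 and -0.23 at 4 and 8 h, and at 4 h miR-376b* stood at 0.07 and the miR-467a* and miR-467d* probe at 0.41.

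The remaining ATM+/+ stars in all 3 sheets, miR-17*, miR-31*, miR-99b*, miR-127*, miR-376b* and miR-455*, had means of -0.32 to 0.16. Stars listed in fewer than 3 ATM+/+ sheets were faint, with 0 h intensities of 16.9 to 31.8: let-7d*, let-7g*, miR-15a*, miR-24-1*, miR-106b*, miR-218-2*, miR-467e*, miR-485* and miR-744*. miR-193* and miR-376c*, listed in ATM-/- sheets only, read 31.1 and 28.6 at 0 h. They entered no mean over times and no test.

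The authors' deposited table gives a p-value per probe whose test is not given in the sources used here. For the 4 h ATM-/- sheet, that deposited table has p under 0.05 for 4 higher stars (20% of all probes) and 2 lower ones (6.49%). Its 8 h sheet has 4 higher (17.5%) and 4 lower stars (20.8%), and its 24 h sheet 0 higher (16.7%) and 4 lower ones (27%). For ATM+/+ the authors' deposited table has 7 higher (33.1%) and 8 lower stars (27%) in the 4 h sheet. The 8 h sheet has 8 higher (27.2%) and 10 lower ones (29.2%), and the 24 h sheet 5 higher (24.6%) and 13 lower ones (36.1%).

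Across the 21 stars with a sequence and a mean response in ATM+/+ cells, GC content and response correlated with Pearson's r of -0.41 and Spearman's rho of -0.39. The number of guanines correlated with r of -0.11 and rho of -0.23. These are descriptions over probes of the same arrays, which are not independent. The part of base composition in the responses was not tested.

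All 10 fibroblast marker miRNAs were listed in both genotypes, with 0 h intensities of 29.4 to 1027 in ATM-/- cells and 317 to 1524 in ATM+/+ cells. Of other markers, the sheets of ATM-/- and ATM+/+ cells listed 1 and 3 of 7 for blood, 0 and 0 of 5 neural, 1 and 3 of 7 epithelial, 4 and 4 of 6 muscle, 0 and 2 of 8 pluripotent and 0 and 1 of 2 endothelial ones. At 0 h the listed epithelial markers read 164 in ATM-/- and 19.4 to 368 in ATM+/+ cells. The muscle markers read 29.0 to 122 in ATM-/- and 66.7 to 276 in ATM+/+ cells. The blood markers read 32.3 in ATM-/- and 26.5 to 32.8 in ATM+/+ cells. Some epithelial and muscle signals thus overlapped the range of the fibroblast markers. The part of these other markers in the values of miR-150* and miR-200a* was not tested. In bulk RNA, fewer cells of a type and less RNA per cell cannot be told apart. The 0 and 4 h arrays of a genotype shared a chip and its 8 and 24 h arrays shared another, so chip and time cannot be fully told apart.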

How the data were processed

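Mature miRNAs were measured on 8 single-colour arrays, from 4 µg of labelled total RNA per the labels' protocols. The authors deposited 6 sheets, each setting 1 treated array against its 0 h array. Per the file headers, each probe of a sheet has 2 normalized intensities, 2 coefficients of variation (each a ratio to the probe's mean), a log2 of treated over 0 h intensity and a p-value. The sources used here do not give the normalization, the background correction or the rule for listing probes. The deposited value table of ratios to 0 h holds 431 probes and none of the 41 star probes. Genotypes were read from the slide lists, which also give the chip and the position (1 or 2).

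The log2 responses were computed here from the 2 intensities of a sheet. For plotted and printed intensities, each sheet was multiplied by 1 constant that matches its 0 h values to the 4 h sheet of that genotype. Means over 3 times used probes in all 3 sheets of a genotype. limma 3.58.1 in R 4.3.3 (lmFit, eBayes) was fitted to log2 intensities, for each genotype alone (2 residual degrees of freedom) and for all 8 arrays (4), with Benjamini-Hochberg adjustment over all probes fitted. On simulated data with 284 probes for ATM+/+ cells alone, 51.5% of log2 changes of 1 and 99.9% of changes of 2 were recovered. For the ATM-/- fit with 123 probes the shares were 48.6% and 99.6%, and for all 8 arrays with 120 probes 53.1% and 100%. The simulated noise was independent, with the same set SD for every probe, and was not estimated from these arrays. These shares therefore do not give the power of the fits to the real arrays.

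The members and lists were chosen with earlier results of these data known. Named are stars in all 6 sheets, the 8 highest and 8 lowest responses and the 6 brightest at 0 h per genotype, the widest arm gaps and list members; the rest are named as members without full values. A guide is the probe with the star's name without the asterisk. Stars were matched to RefSeq arms by a name table written for this work.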

Additional observations from a re-analysis of the deposited data

Results flagged for a closer look

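Responses of opposite sign in the genotypes at every time drew attention to 2 stars. miR-431* was above 0 h in ATM-/- cells and below it in ATM+/+ cells, with a mean difference in log2 response of 1.03 ± 0.42 (SD over 3 times). miR-140* was below 0 h in ATM-/- cells and above it in ATM+/+ cells, with a mean difference of -0.96 ± 0.35. limma over all 8 arrays gave both an adjusted p of 0.419, and 15 of 120 probes (12.5%) had opposite signs in the same way. Each rests on 1 array at 0 h per genotype. No group holds enough arrays for a check of single outlying arrays.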

How the results depend on the processing

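No paired analysis was possible because each group has 1 array and no replicates to match; the chip was used as a block instead. The ratio table could not give a value, since it holds none of the star probes. Over 151 recomputed values of 20 results, 132 stayed within the tolerance (counts within 1.5 times, medians within 1 SD over the times) and 19 moved beyond it. A change of sign was counted only among the 36 values of single probes, and none of these moved. The ATM-/- star median did change sign, as given below, and counts as moved. Some values could not move, since the deposited log2 column equals the one computed here and centring cancels in star minus guide gaps. The causes of the moves were not tested, and some settings also left fewer probes. With dim signals left out, the median star response in ATM-/- cells was 0.0037 (9 probes), and in ATM+/+ cells 0 stars were 2-fold higher and 2 lower (21 probes). With coefficients of variation of at most 25%, the ATM-/- median was 0.0037 (7 probes) and 0 ATM+/+ stars were 2-fold higher. Over the 11 stars in all 6 sheets, ATM+/+ cells had 0 stars 2-fold higher, 3 lower and a median of -0.57. Averaging the 3 miR-30 and the 2 miR-483* probes, chosen after seeing the data, left 3 lower. Leaving out a time gave 3 to 5 lower and 1 to 2 higher stars in ATM+/+ cells, and star minus guide medians of 0.21 to 0.53 in ATM-/- and -0.41 (without 8 h) to -0.22 in ATM+/+ cells. The median star response then ranged from -0.25 to -0.08 in ATM-/- and from -0.32 to -0.05 in ATM+/+ cells. limma called 0 stars in ATM+/+ cells alone with arrays centred on their median, 5 of 30 with the chip as a block (18% of all probes), 7 of 27 without the dimmest 10% of probes (25.9%) and 6 of 30 with an intensity trend and robust prior (26.4%). Leaving out a time gave 0 (without 8 h) to 4 (without 4 h; 12.7% of all probes). Quantile normalization gave 2 (6.69%), miR-22* and miR-24-2*, both higher. With all 8 arrays the chip block called 1 star in ATM+/+ cells, miR-30c-2* (8.33%). The single 0 h array per genotype enters every response and limits what can be said of any star.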
